A study of Homo sapiens with 6 samples.

Results

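The genes described here are 7 ATP-driven calcium pumps, namely ATP2B1, ATP2B2, ATP2B3, ATP2B4, ATP2A2, ATP2A3 and ATP2C1, together with STIM1 and ORAI1, which let calcium back into the cell when the internal store runs low. They are 9 of the 38637 genes in the expression table and were picked by name. Since their response to the drug was already known when they were picked, their differences between the groups are given as a description without a test. RNA was measured in OVCAR8, an established human ovarian cancer cell line whose genotype was labelled wild type. Polyadenylated RNA was sequenced after 72 h in the solvent DMSO or in 2 nM pladienolide B, a small molecule that binds the splicing factor SF3B1, with 3 samples in each group. All samples came from this single line. The labels do not say whether the samples of a group were separate cultures, so the p-values given for other genes measure only the spread between these samples, which may be technical. One purpose of the study was to find what inhibition of SF3B1 does to ovarian cancer cells.

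Calcium is kept very low in the cytosol and high outside the cell and in the endoplasmic reticulum, and a calcium signal is a brief opening of channels between these spaces. The pumps restore the gradient by using ATP. Those of the ATP2B family (PMCA) push calcium out across the plasma membrane, those of the ATP2A family (SERCA) load the endoplasmic reticulum, and those of the ATP2C family (SPCA) load the Golgi with calcium and manganese. When the endoplasmic reticulum empties, STIM1 in its membrane senses the loss and opens the ORAI1 channel of the plasma membrane.

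The gene bodies of all 9 genes lie on the standard chromosomes of hg38. ATP2B4, the pump with the greatest difference among those well covered by reads, spans chr1:203626832-203744081 on the plus strand, and ATP2B1, which differed in the opposite direction, spans chr12:89588049-89709366 on the minus strand. The start regions of both, 300 bases that run from before to just after a RefSeq start site on GRCh38.p14, are printed 5′ to 3′ on the gene's own strand because these genes make up almost all of the plasma membrane pump transcripts and differed in opposite directions. The capitals mark matches, on either strand, to the GC box GGGCGG or the E-box CACGTG, and ATP2B1 has 2 listed start sites. The ATP2B4 region is chr1:203626582-203626881, and the ATP2B1 regions are chr12:89709317-89709616 and chr12:89708789-89709088.
ATP2B4: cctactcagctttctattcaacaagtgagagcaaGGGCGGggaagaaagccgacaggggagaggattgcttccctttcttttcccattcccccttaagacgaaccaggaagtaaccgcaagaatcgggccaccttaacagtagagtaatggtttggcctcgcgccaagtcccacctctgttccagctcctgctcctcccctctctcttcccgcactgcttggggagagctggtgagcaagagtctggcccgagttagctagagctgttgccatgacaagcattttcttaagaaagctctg
ATP2B1, first start: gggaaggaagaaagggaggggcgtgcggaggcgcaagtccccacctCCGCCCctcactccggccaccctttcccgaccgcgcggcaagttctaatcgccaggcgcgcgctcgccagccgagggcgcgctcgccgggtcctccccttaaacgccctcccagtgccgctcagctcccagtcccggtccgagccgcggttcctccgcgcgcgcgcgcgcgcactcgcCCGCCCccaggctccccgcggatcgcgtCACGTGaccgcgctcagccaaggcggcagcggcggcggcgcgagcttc
ATP2B1, second start: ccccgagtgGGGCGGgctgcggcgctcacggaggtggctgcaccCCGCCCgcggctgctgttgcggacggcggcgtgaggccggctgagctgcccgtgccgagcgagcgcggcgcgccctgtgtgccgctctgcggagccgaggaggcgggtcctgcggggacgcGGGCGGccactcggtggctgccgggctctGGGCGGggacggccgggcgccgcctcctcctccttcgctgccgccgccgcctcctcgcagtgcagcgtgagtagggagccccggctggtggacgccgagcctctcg

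The 3 sequences differ in base composition. The ATP2B4 region held 9 CG dinucleotides and 53.3% G or C, against 48 CG and 75.3% in the first region of ATP2B1 and 45 CG and 79.3% in the second. The median of 34796 RefSeq start regions of the same length was 14 CG dinucleotides and 58.7% G or C. ATP2B4 had 1 GC box, and the ATP2B1 regions had 2 and 4 of them. The GC box occurred in 44.9% of all start regions and the E-box, present in the first region of ATP2B1 alone among these 3, in 7.2%. Neither CCAAT (34.6% of all start regions) nor TATAAA (11.6%) was found in the 3 sequences. RefSeq regions were at hand for 7 of the 9 genes, 17 regions in all, and not for ATP2A3 and ORAI1. A GC box was present in at least 1 region of each of the 7 genes and in 13 of the 17 regions. Some regions of ATP2B2 and of STIM1 overlap, so the same bases enter these counts more than 1 time. A gene with several regions also has more chances of a match than 1 region. CCAAT was present in 3 of the 17, the E-box in 1 and TATAAA in 0. More CG dinucleotides than the median were counted in 12 of the 17 regions, which belonged to 6 of the 7 genes. ATP2B4 was the gene without one, but it had only 1 listed region, and genes with more regions had more chances. Regions with fewer CG dinucleotides than that of ATP2B4 were also listed for ATP2B2 (6), STIM1 (7) and ATP2C1 (3). A match is only a run of letters in the window and does not show a binding site.

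The genes are long. ATP2B4 covers 117.2 kb with 21 exons in its canonical transcript, ATP2B1 121.3 kb with 21 exons, ATP2B2 383.9 kb with 23 and ATP2B3 65.3 kb with 22. ATP2A2 covers 69.8 kb with 20 exons, ATP2A3 40.6 kb with 21 exons, ATP2C1 166.1 kb with 28 exons and STIM1 238.6 kb with 13 exons. ORAI1 is the exception, with 15.5 kb and 3 exons. For comparison, the median of 19089 protein-coding genes was 25.9 kb and 8 exons, so 8 of the 9 genes exceeded both medians and ORAI1 was under both.

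The samples held between 22621338 and 26130882 reads on genes, and all DMSO samples had more than any pladienolide B sample. Values are given as adjusted reads, the read counts after the authors' scaling of the libraries to one size. DMSO replicate 2 stood apart: its reads differed from the other DMSO samples with a chi-square per degree of freedom of 7.34 and 7.25, against 2.01 between those 2 and 3.17 to 4.82 among the pladienolide B samples, and no sample duplicated another. Of 9 markers of ovarian cancer epithelium, KRT7, KRT8, KRT18, EPCAM, PAX8 and MSLN had at least 50 adjusted reads in every sample, whereas MUC16, WT1 and CDH1 did not. The 9 markers summed to 80781 to 86669 adjusted reads in DMSO and 81226 to 96596 in pladienolide B. The 5 leukocyte markers summed to 1100 to 1256 and 1497 to 1604, nearly all of it CD68, with CD3E at 0 and PTPRC and MS4A1 at most 2. The 3 endothelial markers summed to 46 to 72 and 60 to 90. The 3 fibroblast markers summed to 6926 to 7102 and 5798 to 6512, mainly COL1A1, with DCN at 0 in DMSO and at most 2.07 in pladienolide B. The part of these marker differences in the results was not tested. In such bulk samples, fewer cells of a kind and less RNA per cell cannot be told apart.

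Among the plasma membrane pumps, ATP2B4 was much lower with pladienolide B while ATP2B1 was higher. ATP2B4 encodes PMCA4, a widely expressed pump that removes calcium after a signal. It was at 3608, 3457 and 3673 adjusted reads in the DMSO samples and at 1463, 1488 and 1361 in the pladienolide B samples. All pladienolide B samples were therefore far below all DMSO samples. The mean went from 3579 ± 111 (SD, n = 3) to 1437 ± 67.2 (SD, n = 3), which is 40.2% of the DMSO mean and a log2 fold change of −1.32. The reads before adjustment were 3832, 3429 and 3886 against 1404, 1394 and 1358. When 16208 genes with enough reads were ordered by log2 fold change, ATP2B4 had the 120th strongest decrease. By its mean level it ranked 2328th of them.

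ATP2B1 encodes PMCA1, the housekeeping pump of the family. Its DMSO samples had 1156, 1238 and 1161 adjusted reads, and its pladienolide B samples had 1737, 1795 and 1620. The groups were again apart, with the lowest pladienolide B sample above the highest DMSO sample. Pladienolide B brought the mean from 1185 ± 46 to 1718 ± 88.9 (SD, n = 3 each), which is 145% of DMSO and 0.53 on the log2 scale. DMSO replicate 2, the sample that stood apart, had the highest ATP2B1 and the lowest ATP2B4 value of its group. Without it the log2 fold changes were 0.57 for ATP2B1 and −1.34 for ATP2B4.

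ATP2B2 and ATP2B3 encode PMCA2 and PMCA3, pumps known mainly from the nervous system, and both were nearly absent from OVCAR8. ATP2B3 had 2, 2 and 1 reads in the DMSO samples and 7, 9 and 14 in the pladienolide B samples. The groups were apart, but at so few reads that the change is loosely bounded: the 5 reads in DMSO against 30 in pladienolide B gave a ratio of 6.61 after allowing for depth, with an exact 95% Poisson interval of 2.54 to 21.8 that covers counting error only. On the log2(adjusted reads + 1) scale, which understates the change of such low genes, the difference was 2.11. ATP2B2 had 4, 4 and 5 reads against 0, 2 and 5, so its groups overlapped. Its 13 reads against 7 gave a ratio of 0.593 with an interval of 0.2 to 1.6. Neither gene reached the minimum of 10 adjusted reads in 3 samples that was asked of tested genes.

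**Figure D1:**
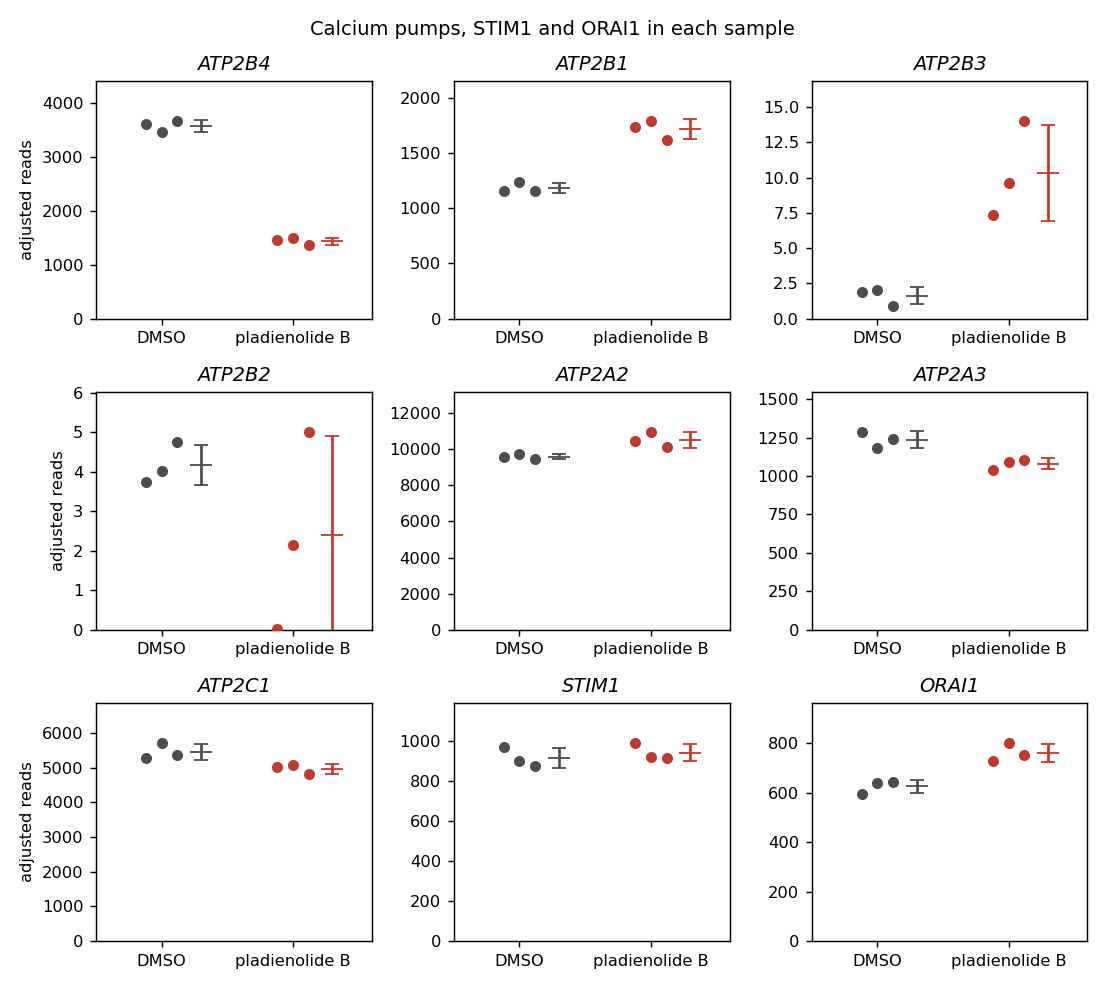
Adjusted reads (y axis, from 0, with its own scale in each panel) of the 9 genes in each of the 3 DMSO samples (grey points) and 3 pladienolide B samples (red points), with the mean and SD beside them. ATP2B4 is lower and ATP2B1 higher in all pladienolide B samples, STIM1 and ATP2B2 overlap between the groups, and the lower error bar of ATP2B2 is cut at 0.

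Because ATP2B4 was the main pump of the family and ATP2B1 the lesser one in DMSO, the make-up of the family turned over. On the scale of adjusted reads per kb of exon, ATP2B4 made up 75.7%, 73.6% and 76.0% of the summed family level in the DMSO samples and 45.7%, 45.2% and 45.4% in the pladienolide B samples. ATP2B1 made up 24.2%, 26.3% and 23.9% in DMSO and 54.1%, 54.5% and 54.0% in pladienolide B. The leading pump was thus ATP2B4 in every DMSO sample and ATP2B1 in every pladienolide B sample. The ratio of ATP2B4 to ATP2B1 per kb was 3.03 ± 0.204 with DMSO and 0.839 ± 0.00717 with pladienolide B (SD, n = 3 each). ATP2B3 went from a mean of 0.0307% to 0.3% of the family and ATP2B2 from 0.081% to 0.072%. The higher ATP2B1 level did not make up for the lower ATP2B4 level. The family's sum was 502 ± 7.33 adjusted reads per kb in DMSO and 333 ± 15.9 in pladienolide B (SD, n = 3 each), or 66.4%. With the length of the canonical transcript in place of all exons, the share of ATP2B4 went from 70.9% to 40.3% and the sum to 70.7% of DMSO.

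**Figure D2:**
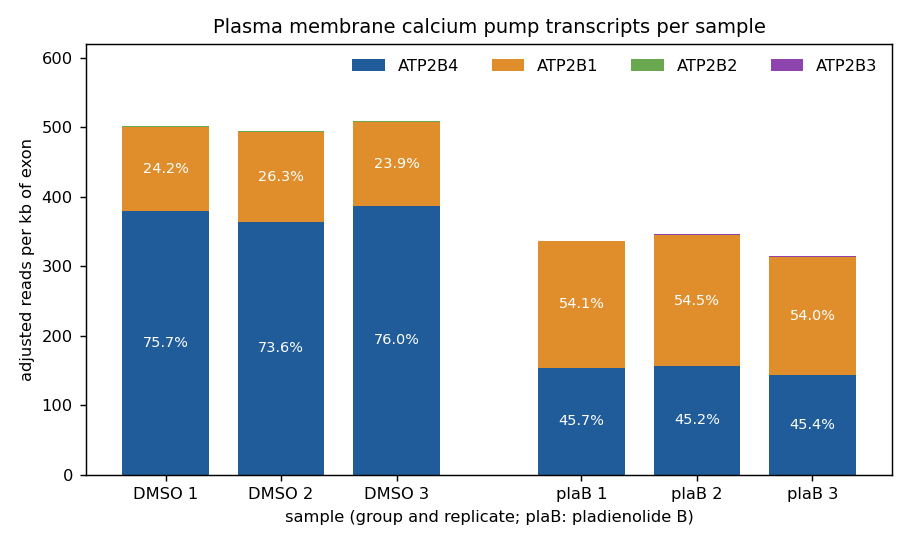
Level of the 4 plasma membrane calcium pumps in each sample, as stacked adjusted reads per kb of exon (y axis, from 0), with the share of ATP2B4 and ATP2B1 printed in the bars. ATP2B4 fills 73.6% or more of each DMSO bar and at most 45.7% of each pladienolide B bar, and the pladienolide B bars are shorter. ATP2B2 and ATP2B3 are too low to be seen clearly.

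The pumps of the endoplasmic reticulum differed far less. ATP2A2 encodes SERCA2, whose housekeeping form fills the calcium store of most cells. It had 9564, 9735 and 9478 adjusted reads in DMSO and 10460, 10966 and 10099 in pladienolide B. The pladienolide B samples were all above the DMSO samples, but by little, with means of 9592 ± 131 and 10508 ± 436 (SD, n = 3 each) and a log2 fold change of 0.13. ATP2A3 encodes SERCA3, a pump with lower calcium affinity that is found in blood, endothelial and some epithelial cells. It had 1288, 1181 and 1243 adjusted reads in DMSO and 1039, 1092 and 1106 in pladienolide B. Here the pladienolide B samples were all lower, with means of 1238 ± 53.6 and 1079 ± 35.3 (SD, n = 3 each) and a log2 fold change of −0.20. The ratio of ATP2A2 to ATP2A3 per kb was 3.72, 4.13 and 3.82 in the DMSO samples and 5.05, 5.04 and 4.58 in the pladienolide B samples, so ATP2A2 was the main store pump in all 6. The level per kb of the whole ATP2B family relative to the summed ATP2A2 and ATP2A3 was 0.572 ± 0.012 with DMSO and 0.361 ± 0.00884 with pladienolide B (SD, n = 3 each), without overlap between samples. The size of this ratio also depends on the length used. With canonical transcripts the family's sum per kb was 580 in DMSO and 410 in pladienolide B. ATP2A2 then had 1160 and 1270 per kb, and ATP2A3 264 and 230.

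The Golgi pump ATP2C1, which encodes SPCA1, the pump mutated in Hailey-Hailey disease, had 5273, 5716 and 5370 adjusted reads in DMSO and 5012, 5078 and 4810 in pladienolide B. The groups were apart by a narrow margin. The means were 5453 ± 233 and 4967 ± 139 (SD, n = 3 each), a log2 fold change of −0.13.

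Of the store-operated entry pair, the channel was higher with the drug and the sensor's groups overlapped. The channel subunit ORAI1 had 597, 640 and 643 adjusted reads in DMSO and 730, 802 and 753 in pladienolide B, with no overlap. Its means were 626 ± 26 and 762 ± 37.1 (SD, n = 3 each), a log2 fold change of 0.28. STIM1 had 973, 900 and 877 adjusted reads in DMSO and 993, 921 and 915 in pladienolide B. Its groups overlapped, and its log2 fold change of 0.04 was smaller than the spread between replicates, which was 0.0719 on the same log2 scale. STIM1 per kb was 0.347 ± 0.0339 of ORAI1 in DMSO and 0.293 ± 0.0256 in pladienolide B (SD, n = 3 each). The lowest DMSO ratio, 0.322, lay next to the highest pladienolide B ratio, 0.321. The size of this ratio depends on the length used. With canonical transcripts, STIM1 and ORAI1 had means of 220 and 419 per kb in DMSO and 226 and 509 in pladienolide B.

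In all, the groups did not overlap for 7 of the 9 genes, 4 of them higher and 3 lower with pladienolide B. Among the 7 genes that passed the filter on low values, 6 did not overlap, 3 higher and 3 lower. Non-overlapping groups were found for 55.2% of the 16208 genes that passed it, with 26.4% higher and 28.8% lower, and their log2 fold changes had a median of −0.004. A change that both passed limma's test and was at least 2-fold was found for 3.95% of them.

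The order of the genes' levels, compared per kb of exon, changed around ATP2B4. In DMSO the order from high to low was ATP2A2 at 698 ± 9.53 adjusted reads per kb, ATP2C1 at 641 ± 27.4, ATP2B4 at 377 ± 11.7, ORAI1 at 220 ± 9.14, ATP2A3 at 180 ± 7.77, ATP2B1 at 124 ± 4.83 and STIM1 at 76.1 ± 4.17 (SD, n = 3 each). ATP2B2 and ATP2B3 closed the order, with levels of at most 0.46 and 0.19 adjusted reads per kb in any DMSO sample. The sample ranges of no pair of neighbours overlapped, and the closest neighbours were ATP2A2 and ATP2C1, with a ratio of 1.09. In pladienolide B the order was ATP2A2 at 765 ± 31.7, ATP2C1 at 584 ± 16.4, ORAI1 at 268 ± 13, ATP2B1 at 180 ± 9.34, ATP2A3 at 157 ± 5.12, ATP2B4 at 151 ± 7.08 and STIM1 at 78.3 ± 3.59 (SD, n = 3 each), followed by ATP2B3 and ATP2B2. ATP2B4 thus went from place 3 to place 6 and ATP2B1 from place 6 to place 4. Only ATP2A3 and ATP2B4, with a ratio of 1.04, had overlapping ranges in this group. Places also depend on the length used, even where the sample ranges of neighbours did not overlap. With the canonical transcript ATP2B4 was at place 4 in DMSO, below ORAI1, and at place 7 in pladienolide B, below STIM1. Per kb of exon, ATP2B4 had been above these genes by ratios of 1.71 and 1.93.

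**Figure D3:**
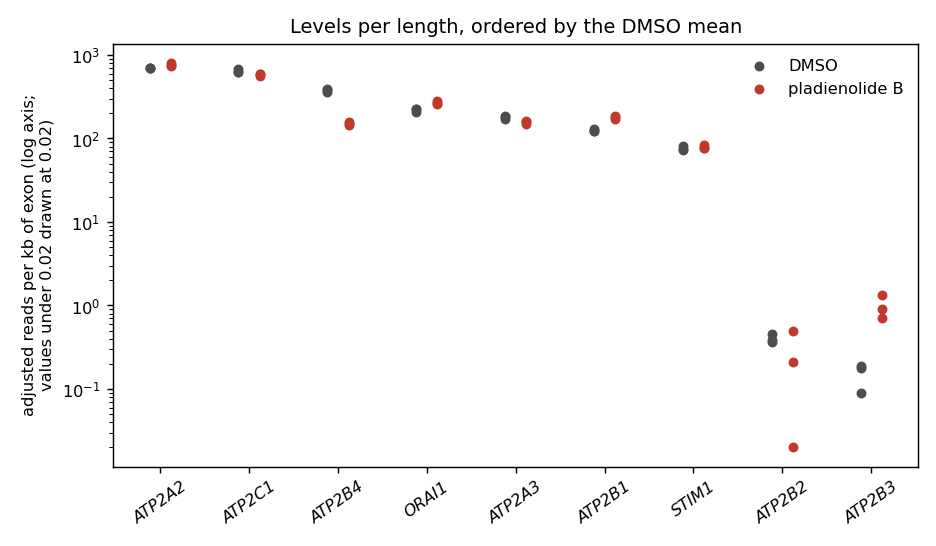
Adjusted reads per kb of exon (y axis, log scale, values under 0.02 drawn at 0.02) of the 9 genes in each sample, with DMSO in grey and pladienolide B in red, ordered along the x axis by the DMSO mean. ATP2B4 goes from 377 to 151, into the range of ATP2A3, while ATP2B1 goes from 124 to 180, and ATP2B2 and ATP2B3 stay far below all others.

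Some annotated genes share ground with these genes, and the sources used here do not say whether reads were counted by strand. ASTE1, which overlaps the end of ATP2C1 on the opposite strand, rose from 177 ± 4.34 to 246 ± 13.8 adjusted reads (SD, n = 3 each), a log2 fold change of 0.47 ± 0.10 (SE, limma adjusted p = 0.0013), while ATP2C1 was slightly lower. ATP2B1-AS1, antisense at the start of ATP2B1, had 6.79 ± 3.72 and 10 ± 2.77 adjusted reads (SD, n = 3 each) and did not pass the test (limma adjusted p = 0.34). Within ATP2B4 lie LINC00260, LOC102723543 and SNORA77, whose highest values in any sample were 13.73, 6.01 and 3.1 adjusted reads, and none of the 3 passed the filter. Against the 1361 or more adjusted reads of ATP2B4 in every sample, these are few.

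The genes whose pattern over the 6 samples was most like that of ATP2B4, by Pearson's r of log2(adjusted reads + 1) among 13210 genes with a mean of at least 50, were CD109 (r = 0.9997), IFT122 (r = 0.9992), CAPN1 (r = 0.9987), BCL2L2 (r = 0.9986) and ZBTB17 (r = 0.9985). The points of each r fall into the DMSO and pladienolide B samples, so a high r mostly says that a gene was lower with the drug and even within groups: 245 genes had an r above 0.99 and 1565 above 0.95. CD109, a surface protein that binds TGF-beta, had 5582, 5419 and 5708 adjusted reads in DMSO and 3427, 3463 and 3310 in pladienolide B, with the same order of samples within each group as ATP2B4. BCL2L2, an antiapoptotic relative of BCL2, had 1769, 1730 and 1742 against 814, 808 and 790, a log2 fold change of −1.12, the nearest of the 5 to the −1.32 of ATP2B4. The other log2 fold changes were −0.71 for CD109, −0.95 for IFT122, −0.26 for CAPN1 and −0.53 for ZBTB17. Which genes came first depended on single samples. Leaving out 1 sample kept between 0 and 2 of these 5 in the first 5 places, with 0 without pladienolide B replicate 3.

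Lists of 143 other calcium genes place the pumps in their pathway. They were drawn up by function with earlier results of these data known. Of the 119 that were tested, 17 rose and 41 fell with pladienolide B (limma, adjusted p below 0.05), which is 48.7% against 47.5% of the 16208 genes tested, of which 22.3% rose and 25.2% fell. Their median log2 fold change was −0.06.

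Other pumps and the proteins that bind pumps were the list with the lowest median, −0.25, and of its 9 tested genes 6 fell and 0 rose (limma). Likewise 0 rose at an unadjusted p below 0.05, with edgeR and with DESeq2. The share called was 66.7%, against 47.5% of all genes tested. CALM2 and CALM3, which encode calmodulin, an activator of the plasma membrane pumps, fell by 0.25 ± 0.06 and 0.25 ± 0.05 on the log2 scale (SE, limma adjusted p = 0.0015 and 0.00052). NPTN, the neuroplastin subunit that plasma membrane pumps need for their stability, had 1669, 1778 and 1818 adjusted reads in DMSO and 1290, 1368 and 1360 in pladienolide B. This was a decrease in all samples, with a log2 fold change of −0.39 ± 0.05 (SE, limma adjusted p = 1.2e-05). The related subunit BSG did not pass the test at −0.07 (limma adjusted p = 0.16). C4orf3, a small membrane protein that restrains SERCA pumps, had 2887, 2804 and 3018 adjusted reads against 1779, 1666 and 1709. It had the strongest decrease of the list, −0.76 ± 0.05 (SE, limma adjusted p = 2e-09). The better known SERCA regulators of muscle, PLN, SLN, MRLN and STRIT1, had at most 2.06 adjusted reads in any sample and were not tested. TMEM165, a Golgi transporter of manganese and calcium, fell by 0.36 ± 0.04 on the log2 scale (SE, limma adjusted p = 3.8e-06). ATP2A1 and ATP2C2, the pumps SERCA1 and SPCA2, were low, at means of 32.6 and 19 adjusted reads in DMSO, and did not pass the test (limma adjusted p = 0.94 and 0.95).

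Of 16 tested store-operated entry partners, 2 rose, 3 fell and 11 did not pass the test, so 31.2% were called against 47.5% of all genes. Those that rose were the close relatives of STIM1 and ORAI1. STIM2, a sensor of small losses from the store, went from 399 ± 2.82 to 497 ± 41.3 adjusted reads, and ORAI2 from 531 ± 18.3 to 630 ± 25.2 (SD, n = 3 each). Their log2 fold changes were 0.31 ± 0.08 and 0.25 ± 0.07 (SE, limma adjusted p = 0.0037 and 0.0067). ORAI3, the remaining channel of the family, fell from 200 ± 32.4 to 137 ± 16.8 (SD, n = 3 each), by 0.54 ± 0.14 on the log2 scale (SE, limma adjusted p = 0.004). TRPC4, a receptor-operated cation channel, fell by 0.82 ± 0.09 (SE, limma adjusted p = 1e-06), and ESYT1, which tethers the endoplasmic reticulum to the plasma membrane, by 0.38 ± 0.04 (SE, limma adjusted p = 1e-06).

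Among 15 tested genes of release and leak from the endoplasmic reticulum, 3 rose and 6 fell, or 60% against 47.5% of all genes tested. All IP3 receptors, the channels that release the store after receptor signals, fell: ITPR1 by 0.36 ± 0.12, ITPR2 by 0.57 ± 0.08 and ITPR3 by 0.30 ± 0.04 on the log2 scale (SE, limma adjusted p = 0.024, 1.3e-05 and 3.5e-05). The call of ITPR1 was lost without DMSO replicate 2 (limma adjusted p = 0.074), pladienolide B replicate 1 (0.09) or pladienolide B replicate 3 (0.074). PLCB3, a phospholipase that makes IP3, had 2551, 2730 and 2778 adjusted reads in DMSO and 1252, 1350 and 1427 in pladienolide B. Its mean in pladienolide B was 50% of that in DMSO, with a log2 fold change of −1.0 ± 0.06 (SE, limma adjusted p = 4e-10). Of the other phospholipases in the list, PLCD1 and PLCG1 fell by 0.64 ± 0.14 and 0.15 ± 0.04 (SE, limma adjusted p = 0.0016 and 0.012), the latter not without DMSO replicate 3 (limma adjusted p = 0.059), while PLCB1 at 0.04 and PLCD3 at −0.09 did not pass the test (limma adjusted p = 0.72 and 0.15). In contrast, the leak channel genes TMBIM6 and TMCO1 rose by 0.37 ± 0.04 and 0.36 ± 0.06, and ITPRIP, whose protein acts on IP3 receptors, by 0.52 ± 0.09 (SE, limma adjusted p = 3.7e-07, 0.00014 and 0.00018).

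Of the 17 mitochondrial genes, all of them tested, 5 rose and 2 fell, or 41.2% against 47.5% of all genes tested. The uniporter pore MCU rose from 1990 ± 99.1 to 2277 ± 76.3 adjusted reads (SD, n = 3 each), while SMDT1, its small essential subunit, fell from 313 ± 23.1 to 188 ± 24.8 (SD, n = 3 each). Their log2 fold changes were 0.20 ± 0.05 and −0.74 ± 0.11 (SE, limma adjusted p = 0.004 and 3.8e-05). The uniporter regulator MICU3 rose by 0.47 ± 0.10, the proton and cation exchanger gene LETM1 by 0.49 ± 0.05, the protease gene AFG3L2 by 0.14 ± 0.05 and the calcium sensor gene EFHD1 by 0.82 ± 0.15 (SE, limma adjusted p = 0.00067, 3.5e-07, 0.022 and 0.00022). The call of AFG3L2 was lost without DMSO replicate 1 (limma adjusted p = 0.052), pladienolide B replicate 1 (0.092) or pladienolide B replicate 3 (0.081). SLC25A23, a calcium-regulated carrier, fell by 0.49 ± 0.05 (SE, limma adjusted p = 7e-07).

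The sodium-calcium exchangers, only some of which export calcium across the plasma membrane, were measured for 8 genes. Of these, 3 were tested and 5 were not, with at most 3.8 adjusted reads in any sample for the latter. SLC8A1, the main plasma membrane exchanger of many tissues, had means of 51 and 56 adjusted reads and did not pass the test at 0.14 (limma adjusted p = 0.58). SLC24A1, with 238 and 223, did not pass it at −0.11 (limma adjusted p = 0.51). SLC24A5 fell from 214 ± 19.6 to 170 ± 7 adjusted reads (SD, n = 3 each), by 0.32 ± 0.11 on the log2 scale (SE, limma adjusted p = 0.025), a call that was lost when DMSO replicate 1 (limma adjusted p = 0.12), DMSO replicate 3 (0.058), pladienolide B replicate 2 (0.072) or pladienolide B replicate 3 (0.061) was left out.

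Among the 19 tested plasma membrane channel genes, 3 rose, 4 fell and 12 did not pass the test, so 36.8% were called against 47.5% of all genes. PIEZO1, a mechanically gated channel, had 8625, 8120 and 8571 adjusted reads in DMSO and 4700, 5333 and 5116 in pladienolide B, with a log2 fold change of −0.74 ± 0.05 (SE, limma adjusted p = 2.5e-09). TRPM4, a channel opened by calcium, fell by 0.58 ± 0.07, and the voltage-gated channel genes CACNA1H and CACNA2D1 by 0.25 ± 0.07 and 0.30 ± 0.10 (SE, limma adjusted p = 6.3e-06, 0.011 and 0.017). The ATP-gated channel gene P2RX5 rose from 286 ± 45.6 to 520 ± 20.5 adjusted reads and P2RX7 from 22 ± 2.37 to 49 ± 3.67 (SD, n = 3 each), by 0.87 ± 0.10 and 1.15 ± 0.24 on the log2 scale (SE, limma adjusted p = 2.1e-06 and 0.00071). TRPM7, a channel fused to a kinase, rose by 0.28 ± 0.05 (SE, limma adjusted p = 0.00012). Without DMSO replicate 3, 2 of the channel genes were called lower in place of 4, since CACNA1H and CACNA2D1 then missed the threshold (limma adjusted p = 0.064 and 0.054). CACNA1H also missed it without pladienolide B replicate 1 (0.054), and CACNA2D1 without DMSO replicate 1 (0.053) or pladienolide B replicate 3 (0.10).

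Calcium binding chaperones and buffers of the secretory lumen divided into 5 that fell, 0 that rose and 8 that did not pass the test (limma). Likewise 0 rose at an unadjusted p below 0.05, with edgeR and with DESeq2. The share called was 38.5%, below the 47.5% of all genes tested, and the list's median log2 fold change was 0. NUCB1, a Golgi calcium binding protein, fell by 0.61 ± 0.05 and its relative NUCB2 by 0.29 ± 0.06 (SE, limma adjusted p = 2.5e-08 and 0.0011). RCN2 and RCN3 fell by 0.39 ± 0.07 and 0.23 ± 0.07, and the chaperone gene HSP90B1 by 0.26 ± 0.05 (SE, limma adjusted p = 0.00016, 0.016 and 0.00055). The call of RCN3 was lost without DMSO replicate 1 (limma adjusted p = 0.057), pladienolide B replicate 1 (0.067) or pladienolide B replicate 3 (0.06). The main buffers of the store did not pass the test, with log2 fold changes of 0.05 for CALR, 0.00 for CANX and 0.02 for HSPA5 (limma adjusted p = 0.36, 0.99 and 0.80). Without DMSO replicate 2, CALR was called higher, by 0.11 ± 0.03 on the log2 scale (SE, limma adjusted p = 0.0064).

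Of the 27 cytosolic calcium effectors, 4 rose and 14 fell, or 66.7% against 47.5% of all genes tested. The calcineurin catalytic subunit genes PPP3CA and PPP3CB fell by 0.40 ± 0.05 and 0.36 ± 0.06, while the regulatory subunit gene PPP3R1 rose by 0.18 ± 0.05 (SE, limma adjusted p = 5.3e-06, 5.9e-05 and 0.003). The remaining catalytic subunit gene, PPP3CC, did not pass the test at 0.04 (limma adjusted p = 0.67). The transcription factor genes that calcineurin activates went both ways, with NFATC4 from 836 ± 49.2 to 533 ± 32.2 adjusted reads and NFATC2 from 98 ± 21.9 to 159 ± 16.3 (SD, n = 3 each). Their log2 fold changes were −0.65 ± 0.07 and 0.71 ± 0.16 (SE, limma adjusted p = 1.1e-06 and 0.0014). NFATC3 did not pass the test at 0.03 (limma adjusted p = 0.67), and NFATC1, at −0.33 (limma adjusted p = 0.029), lost its call without DMSO replicate 2 (0.051), DMSO replicate 3 (0.14), pladienolide B replicate 1 (0.11) or pladienolide B replicate 2 (0.072). The calpains, proteases activated by calcium, and their inhibitor fell together: CAPN1 by 0.26 ± 0.04, CAPN2 by 0.26 ± 0.04, the shared small subunit CAPNS1 by 0.42 ± 0.04 and the inhibitor CAST by 0.61 ± 0.04 (SE, limma adjusted p = 4.5e-05, 4.2e-05, 2e-07 and 1.6e-09). The calmodulin-dependent kinase genes differed in direction. CAMK2D rose by 0.24 ± 0.06 (SE, limma adjusted p = 0.002), whereas CAMK1D fell by 0.57 ± 0.12, CAMKK1 by 0.55 ± 0.11, CAMK4 by 0.18 ± 0.06 and CAMKK2 by 0.14 ± 0.06 (SE, limma adjusted p = 0.00066, 0.00053, 0.014 and 0.047). CAMK1 at 0.03 and CAMK2G at 0.04 did not pass the test (limma adjusted p = 0.72 and 0.39). The call of CAMK4 was lost without pladienolide B replicate 1 (limma adjusted p = 0.073), and that of CAMKK2 when any sample but pladienolide B replicate 3 was left out (0.06 to 0.17). RCAN1, the remaining gene that rose, did so by 0.21 ± 0.08 (SE, limma adjusted p = 0.037). Its call was lost without DMSO replicate 1 (limma adjusted p = 0.2) or pladienolide B replicate 1 (0.051), 2 (0.12) or 3 (0.086).

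The log2 fold change of −1.32 of ATP2B4 lay below that of every tested gene of the 8 lists, the lowest of which was −1.0 for PLCB3. The 0.53 of ATP2B1 lay within their range. Since ATP2B4 was picked with its decrease known, its place describes the values and is no test. Decreases of at least 2-fold that passed limma's test were seen for 2.01% of the 16208 genes tested.

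**Figure D4:**
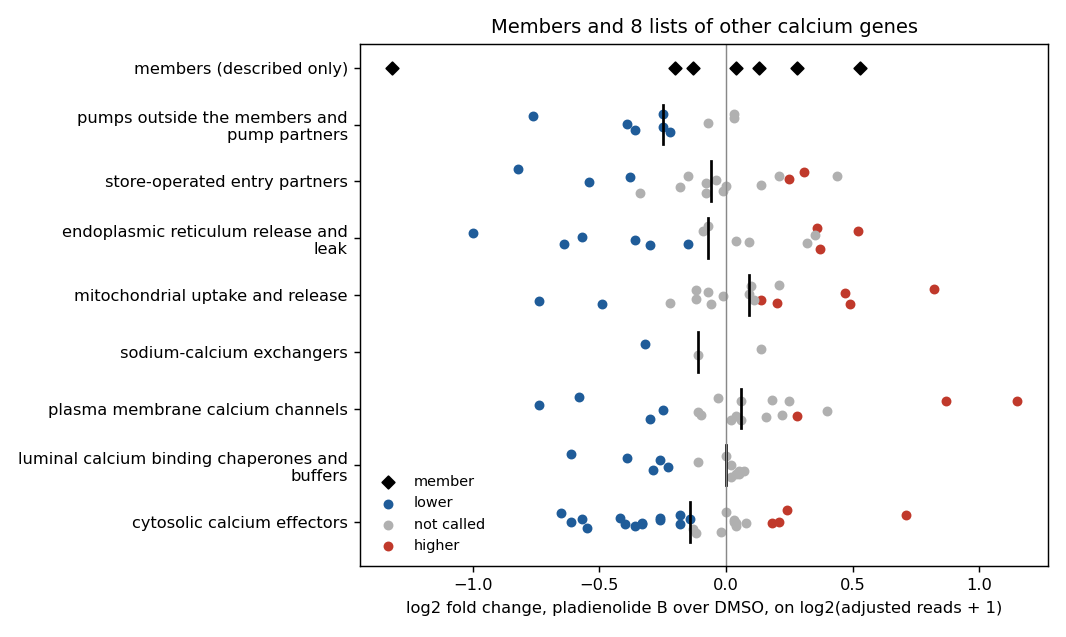
Log2 fold change, pladienolide B over DMSO, on log2(adjusted reads + 1) (x axis) of the 7 described genes with enough reads (black diamonds, top row, labelled members, not tested) and of the tested genes of 8 lists of other calcium genes, colored by whether they passed the test as lower (blue), higher (red) or not (grey), with a bar at each list's median. ATP2B4 at −1.32 is the leftmost point, and the medians run from −0.25 for pumps and pump partners to 0.09 for mitochondrial genes.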

How the data were processed

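RNA sequencing of OVCAR8 cells was analysed in 3 DMSO and 3 pladienolide B samples. The study's methods describe trimming, hisat2 alignment to hg38 and DESeq2; the submitters' processing notes also name HTSeq 0.12.4 and hg19, but the positions in the table overlapped GRCh38 gene models (GENCODE) for 9 of the 9 genes. The per-sample values the authors deposited are a signal, read counts adjusted for library size. They match the output of edgeR's quantile adjustment (common dispersion 0.0027), and inverting the adjustment gave whole reads, to within 0.02, for 100% of 96432 values of 10 or more and 100% of 51711 smaller values. Adjusting these reads again differed from the table by at most 4.91e-05. The authors' deposited fold changes, p-values and q-values were not used, and 0 per-sample columns were left out.

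Genes with at least 10 in 3 samples and 15 in total were kept (16208). limma 3.58.1 with a variance trend was fitted to log2(value + 1) in R 4.3.3, two-sided, with Benjamini-Hochberg adjustment over all genes kept and a threshold of 0.05. The pseudocount of 1 understates fold changes of low genes. Alternatives were a pseudocount of 0.1, other filters on low values, a replicate block, leaving out each sample, limma without the trend, and edgeR 4.0.16 and DESeq2 1.42.0 on the whole reads. The fits were also run on simulated data, in which far fewer genes changed than were called here and no sample stood apart. That run therefore does not show how the fits behave on these samples. Levels per kb used all exons of the gene, or the canonical transcript.

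The 9 genes and the lists were chosen with earlier results of these data known. Named beside the 9 genes were up to 2 higher and 2 lower genes per list with the largest change and a mean of at least 50, further list genes where a count of 5 or fewer was given, tested genes overlapping the 9, and the 5 genes most like ATP2B4. CALM2, CALM3, TMEM165, BSG, ATP2A1, ATP2C2, ITPR1, ITPR2, ITPR3, PLCG1, SLC8A1, SLC24A1, the genes below the filter, CALR, CANX, HSPA5, PLCB1, PLCD3, PPP3CA, PPP3CB, PPP3CC, PPP3R1, NFATC1, NFATC3, the kinase genes other than CAMK2D, CAPN1, CAPN2 and CAPNS1 were chosen after their values were seen.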

Additional observations from a re-analysis of the deposited data

How the results depend on the processing

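No log2 fold change of the 9 genes or of a called list gene reversed under any alternative run. Of the log2 fold changes of the 9 genes over the alternatives, 84 stayed within the spread between replicates and 2 moved. The 84 include those with the replicate block, which could not change them because every replicate number occurs in both groups. With a pseudocount of 0.1 in place of 1, that of ATP2B2 was −1.92 in place of −0.94. That of ATP2B3 was 2.63 in place of 2.11, and both rest on few reads. Leaving out a sample also shifted ATP2B2, to −0.25 without pladienolide B replicate 1 and −1.52 without pladienolide B replicate 3. These shifts counted as unmoved only because its spread between replicates was as wide as 0.918. ATP2B4 ranged from −1.34 to −1.28 and ATP2B1 from 0.50 to 0.58 over all alternatives. The levels per kb depended much more on the processing. With canonical transcript lengths, 17 of these levels moved and 1 did not. STIM1 in DMSO, for one, went from 76.1 to 220 adjusted reads per kb. With these lengths, ATP2B4 was at place 4, ORAI1 at 3, ATP2B1 at 7 and STIM1 at 6 in the DMSO order. In pladienolide B, ATP2B4 was at 7 and STIM1 at 6. Leaving out each sample in turn kept 0 to 2 of the 5 genes most like ATP2B4.

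The replicate numbers did not pair the samples: the deviations of same-numbered samples from their group means correlated at −0.019, −0.019 and 0.003. No DMSO sample correlated best with the pladienolide B sample of its own number. With the replicate number as a block, 3440 genes were higher and 3915 lower, against 3617 and 4082 without it. Since every replicate number occurs in both groups, the block could not change the log2 fold changes of the 9 genes. It gave the lists 17 higher and 42 lower. edgeR on whole reads gave 20 and 40, and DESeq2 18 and 37. Of the 58 list genes that were called, 46 kept their call in every alternative that gave them an adjusted p and 12 lost it in at least 1, without a change of direction: AFG3L2, CACNA1H, CACNA2D1, CALM2, CAMK4, CAMKK2, ITPR1, NFATC1, PLCG1, RCAN1, RCN3 and SLC24A5. With DESeq2, SLC24A5, ITPR1, NFATC1 and CAMKK2 missed the threshold (adjusted p = 0.057, 0.055, 0.055 and 0.11). Of the list counts 226 stayed within 1.5 times the main count and 8 moved. Among them, 2 channel genes were lower without the variance trend, and 1 luminal gene, CALR, was higher without DMSO replicate 2. The depth limits ATP2B2 and ATP2B3, with 13 or fewer and 30 or fewer reads per group. Transcript levels do not measure pump protein or calcium.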
